A study of Mus musculus with 12 samples.

Results

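The 40 genes described here encode the non-collagen scaffold of the lung matrix. They comprise 11 genes of fibronectin and the matricellular proteins, 13 elastic fibre genes, 4 latent TGF-beta binding proteins, 7 small leucine-rich proteoglycans, and 5 genes of versican and the basement membrane linkers and proteoglycans. They were taken by gene symbol from a table of 55491 entries, and each of the 40 symbols matched 1 entry. All 40 were annotated as protein coding, on 17 chromosomes, and all 40 passed the filter on low counts that left 17909 genes for testing. Polyadenylated RNA had been sequenced from whole lungs of wild-type C57BL/6J male mice aged 10 weeks, and every mouse had received oropharyngeal bleomycin (0.0125 U per mouse, about 0.5 U/kg), a drug that injures the alveolar lining and is followed by scarring. Lungs of 4 mice were taken at day 21 after 5 daily intravenous doses of 2 mg of polymer nanoparticles, given from day 14 to day 18 by the retro-orbital route. The particles had a poly(lactide-co-glycolide) core with a poly(ethylene-alt-maleic anhydride) surfactant and were carried in phosphate-buffered saline. Lungs of 4 vehicle mice were taken at day 21, and lungs of 4 further mice were taken at day 14, before any treatment. Since healthy lungs were not among these 12 libraries, every level below is a level in a bleomycin-injured lung.

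The matrix outside the collagen fibrils is laid down mainly by fibroblasts and other mesenchymal cells. Fibronectin is assembled by cells into a provisional mesh after injury, and the matricellular proteins bind to it and to collagen and change how cells adhere. Elastic fibres, which give the lung its recoil, are made of elastin deposited on fibrillin microfibrils with the help of fibulins and cross-linking enzymes. Small leucine-rich proteoglycans sit on collagen fibrils and set their diameter and spacing, and nidogens, perlecan and agrin tie basement membrane networks together.

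Total expected counts were 24138582 to 28910459 per library in nanoparticle lungs, 28001006 to 36208498 in vehicle lungs and 25706260 to 42714693 in day 14 lungs. A count of 3, the upper limit that a count of 0 allows, was worth 0.0702 to 0.124 CPM, and this limit covers counting error only. Levels are given in TPM, the authors' measure of transcript abundance scaled for gene length and library, and differences in log2 fold change from edgeR's quasi-likelihood test, called at a Benjamini-Hochberg adjusted p under 0.05 over all genes tested. A positive difference means a higher level in the group named before "against". In whole-lung RNA, fewer cells of a type and less RNA per cell cannot be told apart. Nanoparticle mouse 3 stood apart in 4 neutrophil markers (S100a8, S100a9, Retnlg and Mmp8), whose TPM summed to 5465 in that lung, against 365 to 402 in the other nanoparticle lungs, 221 to 520 in vehicle lungs and 124 to 317 in day 14 lungs. Vehicle mouse 2 had the highest level of its group for 25 of the 40 matrix genes and the lowest for 11. Alveolar epithelial markers, which identify the tissue as lung, summed to 42036 to 44094 TPM in nanoparticle lungs, 42625 to 48405 TPM in vehicle lungs and 36861 to 42018 TPM in day 14 lungs, and 5 cartilage markers summed to 0.12 to 0.64 TPM. Exons of 15 of the 40 genes overlap a gene on the other strand in GENCODE M21 (Fn1, Eln, Mfap4, Efemp2, Ltbp3 and Aspn among them), and reads of such partners cannot be told apart there, the strand setting of the counting not being stated.

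At day 21 the matrix set took a smaller part of the lung transcriptome than at day 14, in nanoparticle and vehicle mice alike. The 40 genes held 0.597 to 0.695% of all TPM in nanoparticle lungs, 0.639 to 0.767% in vehicle lungs and 0.832 to 0.945% in day 14 lungs. Both day 21 groups thus lay below the day 14 group without overlap, while their own ranges overlapped. For vehicle against day 14, 14 of 40 genes (35%) were lower and 3 (7.5%) were higher, where 6.51% of all genes tested were called lower and 3.79% higher. Scaling bears on that background: 1166 genes of all were lower and 679 higher with TMM scaling, against 934 lower and 888 higher with upper-quartile scaling, which left 13 of the 40 lower and 3 higher. For nanoparticle against day 14, 21 of 40 genes (52.5%) were lower and 2 (5%) were higher, where 8.56% of all genes were called lower and 6.16% higher. For nanoparticle against vehicle, 0 of 40 genes passed in either direction, as did 0% of the 17909 genes tested. The median log2 fold change of the 40 genes was −0.33 in vehicle against day 14 and −0.41 in nanoparticle against day 14, beside medians of 0.0031 and 0.0062 over all genes. Differences below 0 were found for 32 of 40 genes in vehicle against day 14 (49.4% of all genes) and for 34 in nanoparticle against day 14 (48.9%). By normalised counts per library, 16 genes had all vehicle lungs below all day 14 lungs (10.7% of all genes) and 1 had them above (7.2%). For nanoparticle lungs these counts were 21 below day 14 (10.6%) and 2 above (8.47%). Levels per lung given below are in TPM, which for some genes separate the groups differently. The 2 comparisons with day 14 share the same 4 day 14 libraries, so their calls are not independent. Scar fibroblast and myofibroblast markers (Cthrc1, Acta2, Tagln, Lrrc15, Runx1 and Ccn2) summed to 352 to 438 TPM in nanoparticle lungs, 364 to 445 TPM in vehicle lungs and 465 to 609 TPM in day 14 lungs. Within this sum, Ccn2 averaged 126 TPM in nanoparticle lungs, 110 in vehicle lungs and 225 in day 14 lungs. Acta2 averaged 119, 130.4 and 130.6 TPM in the same order, and neither Acta2 nor Runx1 was called. Macrophage markers summed to 564 to 1067 TPM in nanoparticle lungs, 672 to 1123 TPM in vehicle lungs and 1466 to 2000 TPM in day 14 lungs. Most of that was Spp1, with means of 622, 716 and 1369 TPM in the same order. Smooth muscle and pericyte markers overlapped between groups, summing to 211 to 229 TPM in nanoparticle lungs, 215 to 235 in vehicle lungs and 185 to 291 in day 14 lungs. Of these 7 markers, 2 were lower in nanoparticle against day 14 and 1 in vehicle against day 14. General fibroblast markers (Pdgfra, Tcf21 and 6 others) summed to 648 to 808 TPM in nanoparticle lungs, 646 to 815 TPM in vehicle lungs and 527 to 709 TPM in day 14 lungs. Airway epithelial markers summed to 89947 to 114415 TPM in nanoparticle lungs, 92020 to 105638 TPM in vehicle lungs and 83315 to 87312 TPM in day 14 lungs, and 2 of 4 were higher in each day 21 group. Mesothelial markers summed to 253 to 349 TPM in nanoparticle lungs, 260 to 305 TPM in vehicle lungs and 327 to 372 TPM in day 14 lungs. Only Krt19, a keratin that makes up most of this sum, was lower in each day 21 group (1 of 5). Its mean was 206 TPM in nanoparticle lungs, 206 in vehicle lungs and 274 in day 14 lungs. Uncalled differences in vehicle and nanoparticle against day 14 were 0.33 and 0.24 for Upk3b and 0.42 and 0.39 for Lrrn4. They were 0.017 and 0.033 for Wt1 and −0.27 and −0.29 for Msln. Alveolar epithelial markers had 0 of 6 called. In nanoparticle against day 14, 4 of 6 scar fibroblast, 1 of 6 macrophage and 1 of 8 fibroblast markers were lower, and 2 of 8 fibroblast markers were higher. For vehicle against day 14 these counts were 2 of 6, 2 of 6 and 0 of 8 lower, and 2 of 8 higher. The part of these cell types in the matrix differences was not tested.

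**Figure D1:**
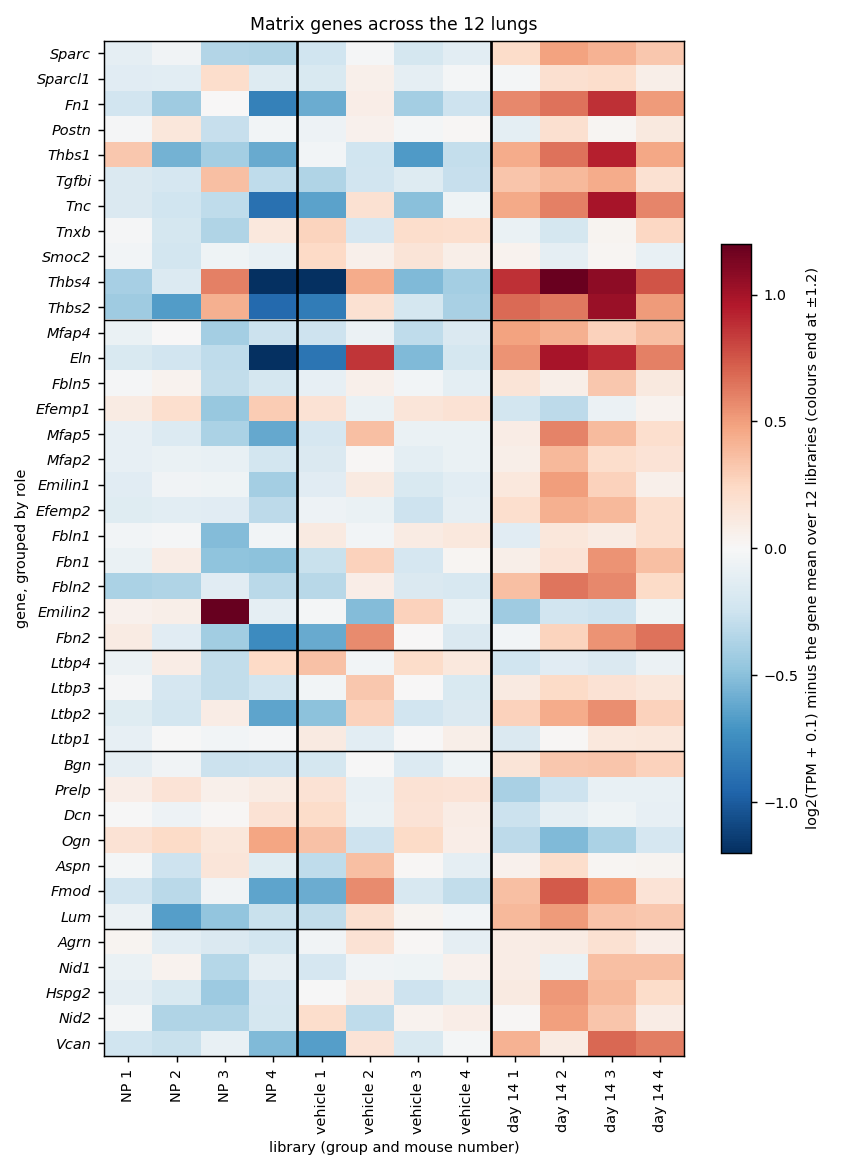
Level of each of the 40 matrix genes in the 12 lungs, as log2(TPM + 0.1) minus the gene's mean over all libraries (rows: genes by role; columns: libraries, with colours ending at ±1.2). Most rows are red in the 4 day 14 columns and blue in the 8 day 21 columns. By mean TPM of the groups, Ogn, Prelp, Ltbp4, Dcn, Efemp1 and Emilin2 run the other way.

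Fibronectin and 5 matricellular genes were lower in both day 21 groups than at day 14, and 0 of the 11 genes of this role were higher. Of all genes, 6.51% were lower and 3.79% higher in vehicle against day 14. In nanoparticle against day 14, 8.56% were lower and 6.16% higher. Fn1 (ENSMUSG00000026193, chr1:71585520-71653200 on the minus strand in GRCm38), which encodes fibronectin, had 306, 267, 360.5 and 205 TPM in nanoparticle lungs, 237, 379, 269.7 and 302 in vehicle lungs and 536, 565, 659 and 510.2 in day 14 lungs. Each of the 8 day 21 lungs lay below each day 14 lung. Fn1 fell by 0.92 (SE 0.17, adjusted p = 0.00727) on the log2 scale in vehicle lungs and by 0.96 (SE 0.17, adjusted p = 0.00399) in nanoparticle lungs, both against day 14. Sparc, a collagen-binding protein that loosens cell adhesion and the most abundant of the 40 genes, had 1841, 1925, 1554 and 1539.8 TPM in nanoparticle lungs, 1684, 1968, 1713 and 1818 in vehicle lungs and 2311, 2762, 2654 and 2473 in day 14 lungs. It fell by 0.51 (SE 0.089, adjusted p = 0.00436) in vehicle lungs and by 0.60 (SE 0.089, adjusted p = 0.00137) in nanoparticle lungs, both against day 14, with no overlap of either day 21 group with day 14.

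Tnc encodes tenascin C, a glycoprotein of injured and remodelling tissue. Its level was 24.01, 23.1, 21.96 and 14.5 TPM in nanoparticle lungs, 17.3, 30.8, 19.1 and 26.2 in vehicle lungs and 37.1, 41.5, 53.8 and 40.8 in day 14 lungs. Tnc fell by 0.88 (SE 0.20, adjusted p = 0.0218) in vehicle lungs and by 1.05 (SE 0.21, adjusted p = 0.00751) in nanoparticle lungs, both against day 14. The vehicle call was lost without vehicle mouse 1 or 3 or day 14 mouse 3 (adjusted p = 0.0582 to 0.0689). Thbs1, a matricellular protein that can activate latent TGF-beta and is also stored in platelets, had 119.9, 64.5, 71.9 and 62.9 TPM in nanoparticle lungs, 93.3, 81.00, 59.7 and 78.3 in vehicle lungs and 130.3, 150.4, 182 and 132 in day 14 lungs. Nanoparticle mouse 1 was well above the other nanoparticle lungs for Thbs1, yet still below every day 14 lung. Thbs1 fell by 0.93 (SE 0.20, adjusted p = 0.0168) in vehicle against day 14, a call lost without day 14 mouse 3 (adjusted p = 0.0562), and by 0.89 (SE 0.20, adjusted p = 0.0153) in nanoparticle against day 14. Platelet and megakaryocyte markers summed to 57.1 to 82.9 TPM in nanoparticle lungs, 38.0 to 57.3 TPM in vehicle lungs and 35.4 to 47.7 TPM in day 14 lungs. Of these 5 markers, 4 were higher in nanoparticle against day 14 and 0 were called in vehicle against day 14. The part of platelets in the Thbs1 level was not tested.

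Thbs2, a related matricellular gene, was far less abundant. It had 1.90, 1.59, 3.51 and 1.31 TPM in nanoparticle lungs, 1.40, 2.95, 2.23 and 1.95 in vehicle lungs and 4.21, 4.06, 5.40 and 3.74 in day 14 lungs. Its differences were the largest of the called members, −1.06 (SE 0.30, adjusted p = 0.0445) in vehicle against day 14 and −1.08 (SE 0.30, adjusted p = 0.0346) in nanoparticle against day 14. Both calls lay near the threshold and were lost when any of several mice was left out. The vehicle call was lost without any of vehicle mice 1, 3 and 4, day 14 mice 1 to 3 and nanoparticle mice 1 and 2 (adjusted p = 0.0514 to 0.12). The nanoparticle call was lost without any of nanoparticle mice 1, 2 and 4, day 14 mice 1 to 3 and vehicle mouse 3 (adjusted p = 0.0503 to 0.093).

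Tgfbi, a TGF-beta-induced adhesion protein, was spread unevenly in the nanoparticle group. It had 70.1, 68.9, 101 and 64.3 TPM in nanoparticle lungs, 61.5, 67.5, 71.04 and 65.2 in vehicle lungs and 99.7, 104, 108 and 89.9 in day 14 lungs. Nanoparticle mouse 3, the lung with the high neutrophil markers, sat within the day 14 range and the other day 21 lungs sat below it. Tgfbi fell by 0.61 (SE 0.12, adjusted p = 0.00954) in vehicle lungs and by 0.41 (SE 0.12, adjusted p = 0.0424) in nanoparticle lungs, both against day 14. Without nanoparticle mouse 3 the second of these differences was −0.56 (adjusted p = 0.000961), and the call was lost without any of nanoparticle mice 1, 2 and 4, day 14 mice 1 to 3 and vehicle mice 2 to 4 (adjusted p = 0.0542 to 0.118).

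The other 5 genes of this role were not called in any of the 3 comparisons. Postn, which encodes periostin, a binder of collagen and integrins often raised in fibrosis, averaged 258 ± 29.8 TPM in nanoparticle lungs, 264 ± 9.54 in vehicle lungs and 276 ± 24.9 in day 14 lungs (SD, n = 4 each), with differences of −0.063 in vehicle against day 14 and −0.11 in nanoparticle against day 14. Sparcl1, a close relative of Sparc, had 579, 582, 734 and 569.6 TPM in nanoparticle lungs, 558, 660.2, 587 and 624 in vehicle lungs and 624, 723, 733 and 667 in day 14 lungs. All groups overlapped for Sparcl1, and its differences from day 14 were −0.19 (SE 0.094, adjusted p = 0.22) in vehicle lungs and −0.17 (SE 0.094, adjusted p = 0.247) in nanoparticle lungs. Thbs4, a thrombospondin of tendon and muscle, had 2.50, 2.96, 5.10 and 0.83 TPM in nanoparticle lungs, 1.05, 4.57, 2.27 and 2.48 in vehicle lungs and 6.18, 7.67, 7.12 and 5.66 in day 14 lungs. Every day 21 lung was below every day 14 lung for Thbs4, but the differences, −1.36 (SE 0.47, adjusted p = 0.0924) in vehicle lungs and −1.29 (SE 0.48, adjusted p = 0.0945) in nanoparticle lungs, missed the threshold. The Thbs4 difference in nanoparticle lungs was −1.77 (adjusted p = 0.0274) without nanoparticle mouse 3, and that in vehicle lungs passed without nanoparticle mouse 4 (adjusted p = 0.0431) and in a fit of these groups alone (adjusted p = 0.0405). Tnxb, which encodes tenascin X of loose connective tissue, had 19.1, 16.7, 14.97 and 21.1 TPM in nanoparticle lungs, 23.2, 16.7, 22.3 and 22.1 in vehicle lungs and 18.2, 16.7, 19.8 and 22.9 in day 14 lungs, with overlap of all groups. Smoc2, a SPARC-related calcium-binding matrix protein, had 9.08, 7.94, 8.92 and 8.71 TPM in nanoparticle lungs, 10.97, 9.70, 10.4 and 9.74 in vehicle lungs and 9.53, 8.58, 9.41 and 8.73 in day 14 lungs. Among the 40 genes, Smoc2 alone had all nanoparticle lungs below all vehicle lungs, as 1.75% of all genes tested did, and 0 of the 40 had all nanoparticle lungs above (1.8% of all genes). The Smoc2 nanoparticle-against-vehicle difference was −0.23 (SE 0.072, adjusted p = 0.902).

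**Figure D2:**
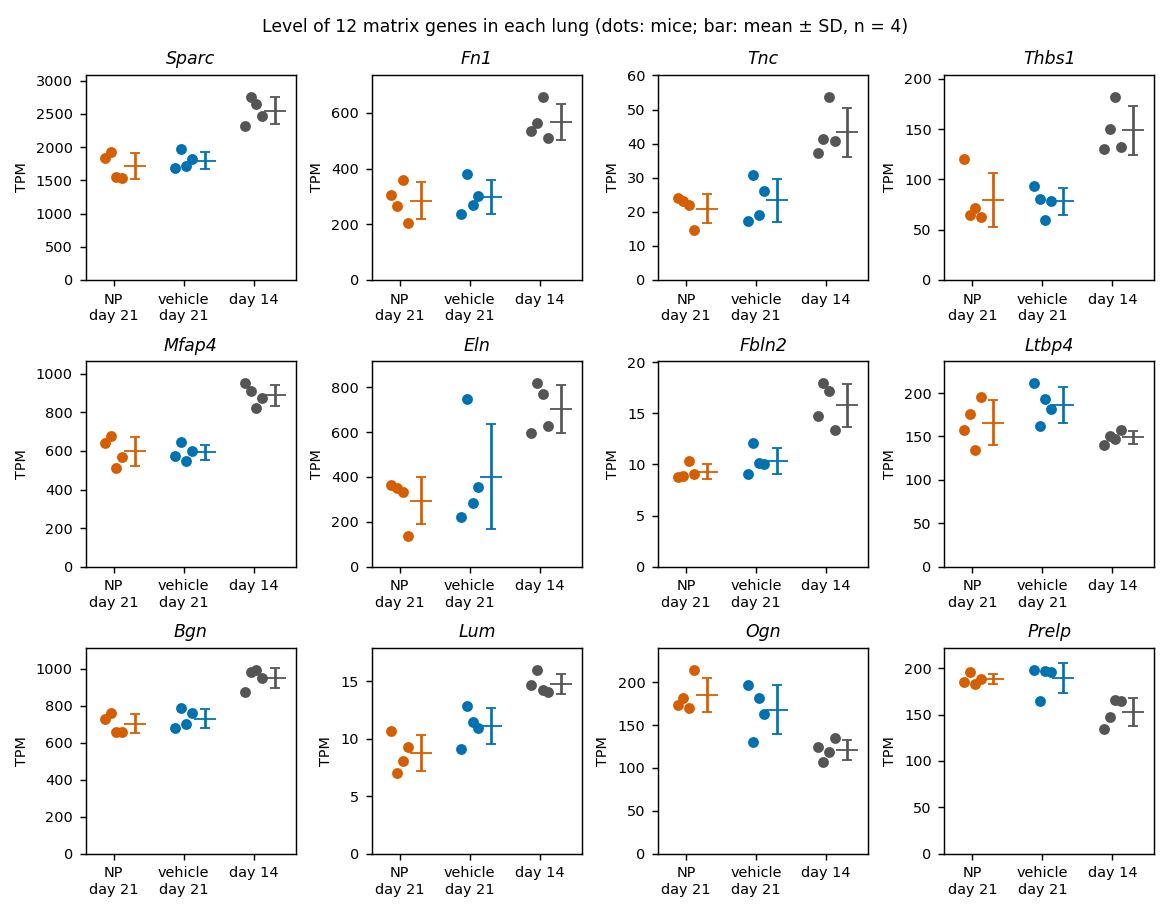
TPM of 12 matrix genes in each lung, by group (dots: mice; bars: mean ± SD, n = 4; each vertical axis starts at 0). Fn1, Sparc, Tnc, Thbs1, Mfap4, Fbln2, Bgn and Lum have both day 21 groups below day 14, Eln has 1 vehicle lung at the day 14 level (745 TPM), and Ogn and Prelp are higher at day 21.

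Of 13 elastic fibre genes, 5 were lower in vehicle against day 14 and 8 in nanoparticle against day 14, where 6.51% and 8.56% of all genes were lower. None of the 13 was called higher in edgeR in either comparison, and 8 in vehicle lungs and 5 in nanoparticle lungs did not pass. Eln (ENSMUSG00000029675, chr5:134702593-134747323 on the minus strand in GRCm38) encodes elastin, the core of the fibre, and its level differed widely between lungs. It had 362, 349, 331 and 138 TPM in nanoparticle lungs, 224, 745, 284 and 354 in vehicle lungs and 596, 816, 768 and 626 in day 14 lungs. Vehicle mouse 2 carried a day 14 level of Eln, nanoparticle mouse 4 had the lowest of all 12 lungs, and the remaining 6 day 21 lungs lay between them and below day 14. The differences were −0.79 (SE 0.38, adjusted p = 0.216) in vehicle against day 14, −1.25 (SE 0.39, adjusted p = 0.0549) in nanoparticle against day 14 and −0.46 (SE 0.38, adjusted p = 0.999) in nanoparticle against vehicle, and 0 of these 3 passed. Without vehicle mouse 2, Eln fell by 1.24 in vehicle against day 14 (adjusted p = 0.0358), and its nanoparticle-against-vehicle difference was 0.0011. Eln in nanoparticle against day 14 passed without vehicle mouse 1 (adjusted p = 0.0443) or vehicle mouse 2 (adjusted p = 0.0172), in DESeq2 (adjusted p = 0.0159), in a fit of these groups alone (adjusted p = 0.027) and with the replicate number as a block (adjusted p = 0.0493).

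Of the microfibril genes, Mfap4 and Mfap2 were lower in both day 21 groups. Mfap4, a microfibril-associated glycoprotein of the lung and vessel wall, had 639.8, 678, 510.4 and 567 TPM in nanoparticle lungs, 572, 644, 550.1 and 602 in vehicle lungs and 949, 911, 819.8 and 871 in day 14 lungs. It fell by 0.63 (SE 0.089, adjusted p = 0.00213) in vehicle lungs and by 0.60 (SE 0.089, adjusted p = 0.00136) in nanoparticle lungs, both against day 14, and the day 21 and day 14 lungs did not overlap. Mfap2, which binds fibrillin, ranged over 69.2 to 76.3 TPM in nanoparticle lungs, 71.3 to 81.5 in vehicle lungs and 84.6 to 106 in day 14 lungs. It fell by 0.33 (SE 0.072, adjusted p = 0.0136) in vehicle against day 14, a call lost without vehicle mouse 1 (adjusted p = 0.0582), and by 0.37 (SE 0.072, adjusted p = 0.00531) in nanoparticle against day 14. Its relative Mfap5 ranged over 59.1 to 84.8 TPM in nanoparticle lungs, 78.8 to 116 in vehicle lungs and 96.4 to 137 in day 14 lungs. Mfap5 fell by 0.67 (SE 0.15, adjusted p = 0.0127) in nanoparticle against day 14, while its difference in vehicle against day 14 was −0.35 (SE 0.15, adjusted p = 0.153), or −0.48 (adjusted p = 0.0490) without vehicle mouse 2. Fbn1, which encodes fibrillin-1, the backbone of the microfibril, ranged over 34.8 to 52.5 TPM in nanoparticle lungs, 40.9 to 59.7 in vehicle lungs and 51.7 to 71.4 in day 14 lungs. It fell by 0.52 (SE 0.15, adjusted p = 0.0391) in nanoparticle against day 14. The Fbn1 call was lost without any of nanoparticle mice 1, 3 and 4 and day 14 mice 2 to 4 (adjusted p = 0.0602 to 0.112). The Fbn1 difference in vehicle against day 14 was −0.33 (SE 0.15, adjusted p = 0.185). Fbn2, the fibrillin of developing tissue, stayed at 0.16 to 0.59 TPM over the 12 lungs and was not called.

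Among the fibulins and emilins, Efemp2, Fbln2 and Emilin1 were lower in both day 21 groups. Efemp2 encodes fibulin-4, which brings lysyl oxidase to elastin. It had 52.4, 53.00, 52.9 and 46.5 TPM in nanoparticle lungs, 55.7, 54.9, 48.7 and 53.8 in vehicle lungs and 66.8, 77.9, 75.9 and 66.5 in day 14 lungs. Efemp2 fell by 0.42 (SE 0.068, adjusted p = 0.00336) in vehicle lungs and by 0.50 (SE 0.069, adjusted p = 0.000875) in nanoparticle lungs, both against day 14, with no overlap. Fbln2, a fibulin of injured vessels and valves, ranged over 8.77 to 10.4 TPM in nanoparticle lungs, 9.08 to 12.1 in vehicle lungs and 13.4 to 17.9 in day 14 lungs and fell by 0.53 (SE 0.098, adjusted p = 0.00598) in vehicle lungs and by 0.69 (SE 0.099, adjusted p = 0.00112) in nanoparticle lungs, both against day 14. Emilin1, located where elastin meets the microfibril, ranged over 46.5 to 60.1 TPM in nanoparticle lungs, 54.3 to 66.6 in vehicle lungs and 64.3 to 87.8 in day 14 lungs and fell by 0.37 (SE 0.079, adjusted p = 0.0122) in vehicle lungs and by 0.42 (SE 0.079, adjusted p = 0.00462) in nanoparticle lungs, both against day 14. The Emilin1 call in vehicle lungs was lost with limma on log2 TPM (adjusted p = 0.103 with either pseudocount). Fbln5, which is needed for elastic fibre assembly in mice, had 139, 144, 114 and 121 TPM in nanoparticle lungs, 131, 146, 137 and 129 in vehicle lungs and 156, 147, 175 and 152 in day 14 lungs. It fell by 0.29 (SE 0.078, adjusted p = 0.024) in nanoparticle against day 14. The Fbln5 call was lost without any of nanoparticle mice 3 and 4 and day 14 mice 1 and 3 (adjusted p = 0.052 to 0.0831). The Fbln5 difference in vehicle against day 14 was −0.22 (SE 0.078, adjusted p = 0.0889), although the vehicle lungs all lay below the day 14 lungs.

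The remaining elastic fibre genes were not called. Emilin2, an emilin also made by blood cells, had 11.4, 11.5, 26.7 and 10.1 TPM in nanoparticle lungs, 10.8, 7.60, 13.3 and 10.3 in vehicle lungs and 8.11, 9.32, 9.19 and 10.5 in day 14 lungs. Nanoparticle mouse 3 alone stood out, and the nanoparticle-against-vehicle difference of 0.57 (SE 0.20, adjusted p = 0.999) was 0.28 (adjusted p = 0.9999) without that mouse. In nanoparticle against day 14 the Emilin2 difference was 0.49 (SE 0.20, adjusted p = 0.129), and it passed in DESeq2 (adjusted p = 0.0497). Fbln1, a fibulin of basement membranes and elastic fibres, had 53.9, 54.8, 38.4 and 54.1 TPM in nanoparticle lungs, 59.6, 54.03, 59.1 and 60.3 in vehicle lungs and 50.2, 60.7, 59.1 and 63.5 in day 14 lungs, and nanoparticle mouse 3 was the lowest of the 12 lungs. Efemp1, which encodes fibulin-3, had 105, 113, 71.7 and 121 TPM in nanoparticle lungs, 110.4, 92.6, 108 and 111 in vehicle lungs and 83.9, 78.6, 93.3 and 101 in day 14 lungs. Nanoparticle mouse 3 was also the lowest for Efemp1, and the difference in nanoparticle against day 14, 0.21 (SE 0.14, adjusted p = 0.322), was 0.35 (adjusted p = 0.0335) without it. The neutrophil marker sum of that mouse is given above, and its part in these 3 genes was not tested.

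**Figure D3:**
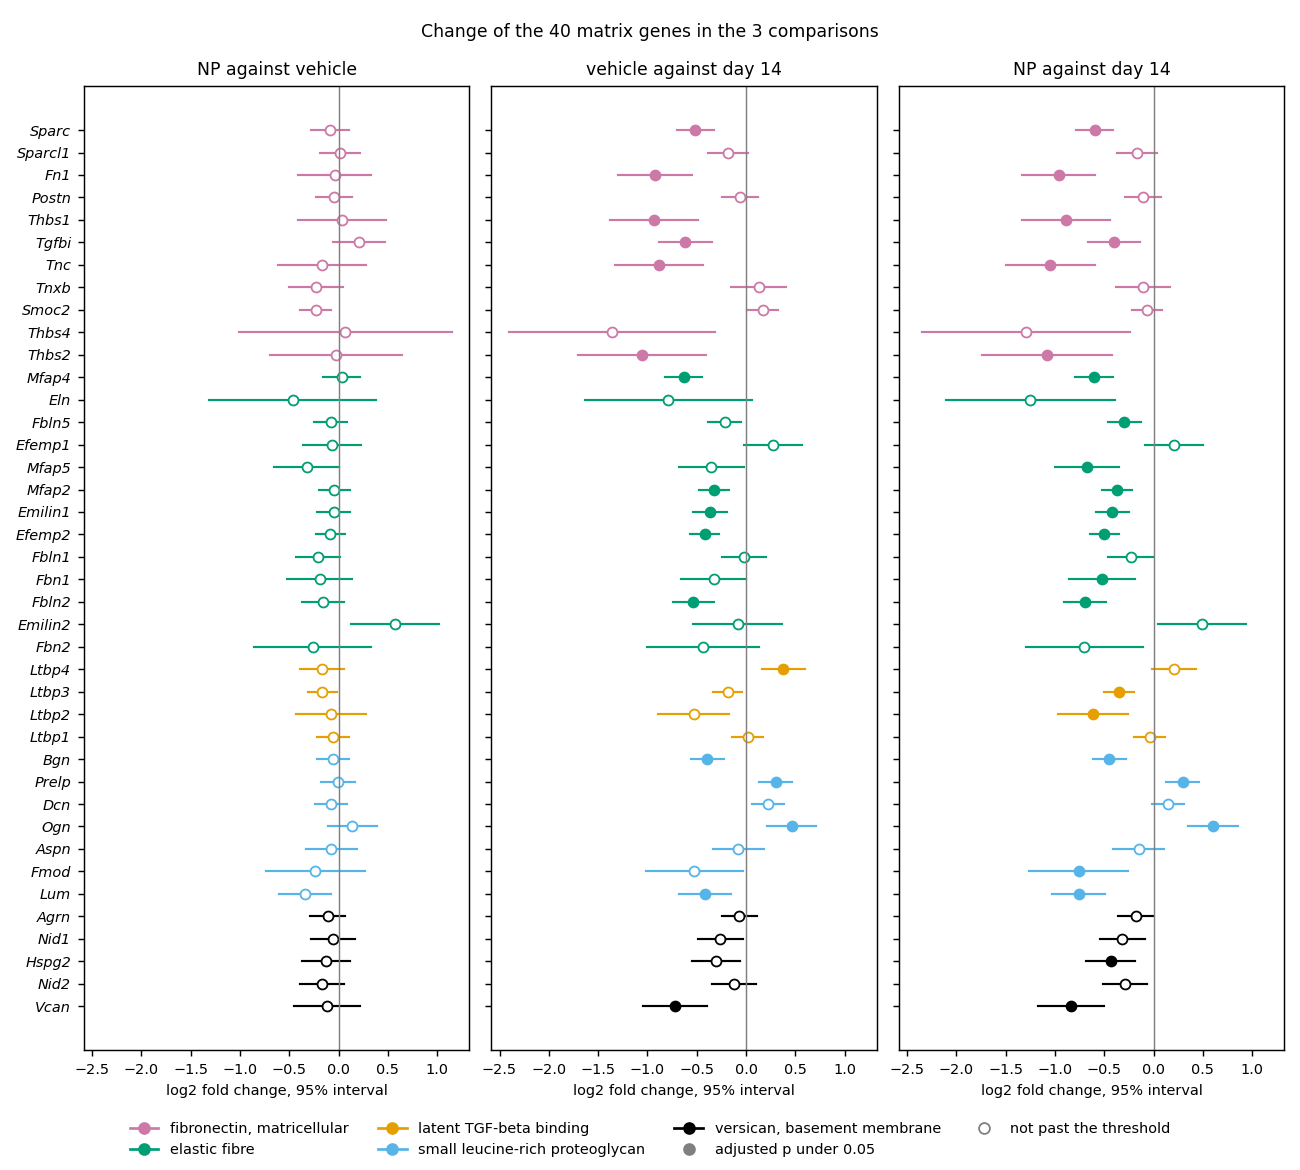
log2 fold change of the 40 matrix genes with 95% intervals, in nanoparticle (NP) against vehicle, vehicle against day 14 and NP against day 14 (colours: roles; filled dots: adjusted p under 0.05). No dot is filled in nanoparticle against vehicle, and the filled dots of the other panels lie below 0 except Ogn and Prelp in both and Ltbp4 in vehicle against day 14.

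Latent TGF-beta binding proteins, which hold the latent growth factor in the matrix and, for Ltbp4, support elastin assembly, were called in different directions. Of 4, 1 was higher in vehicle against day 14 (3.79% of all genes), and 2 were lower in nanoparticle against day 14 (8.56% of all genes). Ltbp4 had 158, 176, 135 and 195 TPM in nanoparticle lungs, 211, 162, 193 and 181 in vehicle lungs and 140.1, 150.5, 147 and 158 in day 14 lungs. All vehicle lungs were above all day 14 lungs for Ltbp4, and nanoparticle lungs overlapped both. Ltbp4 rose by 0.38 (SE 0.10, adjusted p = 0.0338) in vehicle against day 14. The Ltbp4 call was lost without any of vehicle mice 1, 3 and 4 and day 14 mice 1 to 3 (adjusted p = 0.0585 to 0.0978). In nanoparticle against day 14 its difference was 0.21 (SE 0.10, adjusted p = 0.187), or 0.31 (adjusted p = 0.0365) without nanoparticle mouse 3. The nanoparticle-against-vehicle difference of Ltbp4 was −0.17 (SE 0.10, adjusted p = 0.999), so the groups at day 21 were not shown to differ.

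Ltbp3, which binds latent TGF-beta, had 136, 119, 112 and 116 TPM in nanoparticle lungs, 134, 171, 137 and 120.1 in vehicle lungs and 147, 160.2, 154 and 150.1 in day 14 lungs. It fell by 0.35 (SE 0.070, adjusted p = 0.00582) in nanoparticle against day 14. The Ltbp3 difference in vehicle against day 14 was −0.19 (SE 0.070, adjusted p = 0.101), or −0.24 (adjusted p = 0.0351) without vehicle mouse 2, the only vehicle lung above the day 14 range. Ltbp2, a fibrillin-binding relative that does not bind latent TGF-beta, had 75.3, 71.5, 88.7 and 53.9 TPM in nanoparticle lungs, 59.2, 101, 71.2 and 74.1 in vehicle lungs and 101, 114, 123 and 101 in day 14 lungs. It fell by 0.61 (SE 0.16, adjusted p = 0.0283) in nanoparticle against day 14. The Ltbp2 call was lost without any of nanoparticle mice 1, 2 and 4 and day 14 mice 1 to 3 (adjusted p = 0.0505 to 0.0825). The Ltbp2 difference in vehicle against day 14 was −0.53 (SE 0.16, adjusted p = 0.0575), and it passed without vehicle mouse 2 (adjusted p = 0.0175), nanoparticle mouse 3 (adjusted p = 0.0428) or nanoparticle mouse 4 (adjusted p = 0.0356). Ltbp2 in vehicle lungs also passed in DESeq2 (adjusted p = 0.0129), in a fit of these groups alone (adjusted p = 0.0427) and with the replicate number as a block (adjusted p = 0.0441). Ltbp1, which binds latent TGF-beta, averaged 30.9 ± 0.951 TPM in nanoparticle lungs, 32.1 ± 2.26 in vehicle lungs and 32.3 ± 3.13 in day 14 lungs (SD, n = 4 each), with differences of 0.016 in vehicle against day 14 and −0.039 in nanoparticle against day 14.

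Small leucine-rich proteoglycans had calls in both directions within a comparison. In vehicle against day 14, 2 of 7 were lower and 2 of 7 higher (6.51% and 3.79% of all genes). In nanoparticle against day 14, 3 were lower and 2 higher (8.56% and 6.16% of all genes). The upstream 250 bases of 4 of them are shown to set genes that fell (Bgn and Fmod) beside a gene that rose (Ogn) and its uncalled neighbour (Aspn). The sequences are from RefSeq on GRCm38.p6, all on the plus strand, 5′ to 3′, and end at the base before the annotated start. They lie at chrX:73483351-73483600 (Bgn), chr1:134037004-134037253 (Fmod), chr13:49607765-49608014 (Ogn) and chr13:49544193-49544442 (Aspn). Capitals mark matches on either strand to the AP-1 motif TGANTCA, the TATA box TATAAA, the GC box GGGCGG or the TEAD motif GGAATG.
Bgn: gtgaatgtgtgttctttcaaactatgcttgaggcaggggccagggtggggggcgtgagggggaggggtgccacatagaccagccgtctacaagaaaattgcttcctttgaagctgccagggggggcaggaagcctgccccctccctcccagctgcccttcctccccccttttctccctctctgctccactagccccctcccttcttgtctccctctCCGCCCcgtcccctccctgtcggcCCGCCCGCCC
Fmod: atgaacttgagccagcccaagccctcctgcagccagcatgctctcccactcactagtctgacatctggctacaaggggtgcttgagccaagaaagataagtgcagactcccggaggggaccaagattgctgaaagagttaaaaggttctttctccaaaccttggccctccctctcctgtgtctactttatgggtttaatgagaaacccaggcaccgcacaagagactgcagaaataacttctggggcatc
Ogn: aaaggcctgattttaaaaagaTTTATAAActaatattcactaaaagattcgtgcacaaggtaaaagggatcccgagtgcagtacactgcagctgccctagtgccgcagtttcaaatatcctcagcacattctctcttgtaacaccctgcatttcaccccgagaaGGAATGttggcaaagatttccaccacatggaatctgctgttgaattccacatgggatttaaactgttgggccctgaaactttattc
Aspn: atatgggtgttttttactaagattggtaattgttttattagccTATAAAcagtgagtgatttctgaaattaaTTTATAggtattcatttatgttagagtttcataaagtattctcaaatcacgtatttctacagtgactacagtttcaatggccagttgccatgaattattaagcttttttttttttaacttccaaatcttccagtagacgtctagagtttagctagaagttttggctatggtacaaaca

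The Bgn window held 3 GC boxes, of which the last 2 overlap, and was 64.4% G or C, against a median of 52.4% over all promoter windows. The Fmod window held none of the 4 motifs and was 51.2% G or C. The Ogn window held 2 overlapping TATA boxes, read on opposite strands, and 1 TEAD motif, and was 42.0% G or C. The Aspn window held 2 TATA boxes and was 30.0% G or C. In Ogn and Aspn these TATA boxes began 178 to 229 bases before the start. Of the 40 genes, 29 matched the promoter table. These 29 genes had 41 windows, since some have several starts. A GC box was present in 24 of the 41 and in 32.7% of all 32851 windows, a TATA box in 6 and 12.4%, a TEAD motif in 5 and 12.6%, and an AP-1 motif in 2 and 6.75%. A match is a run of letters and not a shown binding site.

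Bgn (ENSMUSG00000031375, chrX:73483602-73495933 on the plus strand) encodes biglycan, a proteoglycan of collagen fibrils that can also signal to immune cells. It had 727, 761, 658 and 659.6 TPM in nanoparticle lungs, 677, 785, 699 and 759.7 in vehicle lungs and 876, 983, 991 and 948 in day 14 lungs. Every day 21 lung was below every day 14 lung, and Bgn fell by 0.39 (SE 0.077, adjusted p = 0.00797) in vehicle lungs and by 0.45 (SE 0.077, adjusted p = 0.00279) in nanoparticle lungs, both against day 14. Lum encodes lumican, which limits collagen fibril diameter. Lum ranged over 7.04 to 10.7 TPM in nanoparticle lungs, 9.09 to 12.8 in vehicle lungs and 14.1 to 15.97 in day 14 lungs, with every day 21 lung below day 14. It fell by 0.42 (SE 0.12, adjusted p = 0.0432) in vehicle lungs and by 0.76 (SE 0.12, adjusted p = 0.00217) in nanoparticle lungs, both against day 14. The Lum call in vehicle lungs was lost without any of vehicle mice 1, 3 and 4, the 4 day 14 mice and nanoparticle mouse 4 (adjusted p = 0.0504 to 0.139). Fmod, which encodes fibromodulin, ranged over 10.4 to 15.7 TPM in nanoparticle lungs, 10.7 to 24.1 in vehicle lungs and 18.2 to 27.00 in day 14 lungs. It fell by 0.76 (SE 0.23, adjusted p = 0.0466) in nanoparticle against day 14. The Fmod call was lost without any of nanoparticle mice 1, 2 and 4, day 14 mice 1 to 3 and vehicle mice 3 and 4 (adjusted p = 0.0583 to 0.122). The Fmod difference in vehicle against day 14 was −0.52 (SE 0.23, adjusted p = 0.161), or −0.79 (adjusted p = 0.0141) without vehicle mouse 2.

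Ogn encodes osteoglycin, also called mimecan, a keratan sulfate proteoglycan of connective tissue. Ogn ranged over 170.0 to 214 TPM in nanoparticle lungs, 129.9 to 197 in vehicle lungs and 107 to 135 in day 14 lungs. The nanoparticle lungs all exceeded the day 14 lungs, and 3 of 4 vehicle lungs did. Ogn rose by 0.47 (SE 0.12, adjusted p = 0.0244) in vehicle against day 14, a call lost without any of vehicle mice 1 and 3 and day 14 mice 2 and 3 (adjusted p = 0.0536 to 0.0758), and by 0.60 (SE 0.12, adjusted p = 0.00513) in nanoparticle against day 14. Prelp, which can anchor basement membrane to collagen, had 185, 196, 183 and 188 TPM in nanoparticle lungs, 198, 165, 197 and 196 in vehicle lungs and 134, 147, 165 and 165 in day 14 lungs. It rose by 0.30 (SE 0.079, adjusted p = 0.0283) in vehicle lungs and by 0.30 (SE 0.079, adjusted p = 0.0235) in nanoparticle lungs, both against day 14. The vehicle call was lost without any of vehicle mice 1, 3 and 4 and day 14 mouse 1 (adjusted p = 0.0644 to 0.0836), and the nanoparticle call without any of nanoparticle mice 2 and 4 and day 14 mouse 1 (adjusted p = 0.0605 to 0.0763). Dcn, which encodes decorin, a binder of collagen and of TGF-beta, had 168, 161, 169.9 and 189.6 TPM in nanoparticle lungs, 197, 159, 188 and 179 in vehicle lungs and 140.4, 157, 162 and 157 in day 14 lungs. Its differences were 0.22 (SE 0.075, adjusted p = 0.0781) in vehicle against day 14 and 0.15 (SE 0.075, adjusted p = 0.204) in nanoparticle against day 14, and the first was 0.29 (adjusted p = 0.0240) without vehicle mouse 2 and 0.23 (adjusted p = 0.0312) in DESeq2. Aspn, which encodes asporin, had 25.6, 21.9, 28.9 and 23.6 TPM in nanoparticle lungs, 21.1, 33.4, 26.2 and 24.2 in vehicle lungs and 26.96, 30.1, 26.4 and 26.6 in day 14 lungs, with overlap of all groups and differences of −0.077 (SE 0.12, adjusted p = 0.719) in vehicle against day 14 and −0.15 (SE 0.12, adjusted p = 0.432) in nanoparticle against day 14.

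Of the 5 genes of versican and the basement membrane, 1 was lower in vehicle against day 14 (6.51% of all genes). In nanoparticle against day 14, 2 were lower (8.56% of all genes). Vcan, a large chondroitin sulfate proteoglycan of provisional matrix, ranged over 3.77 to 5.15 TPM in nanoparticle lungs, 3.43 to 6.18 in vehicle lungs and 5.88 to 8.90 in day 14 lungs. In TPM the highest vehicle lung, vehicle mouse 2, exceeded the lowest day 14 lung for Vcan, though not by normalised counts. It fell by 0.72 (SE 0.15, adjusted p = 0.0124) in vehicle lungs and by 0.84 (SE 0.15, adjusted p = 0.00463) in nanoparticle lungs, both against day 14. The Vcan call in vehicle lungs was lost with limma on log2 TPM (adjusted p = 0.0626 and 0.0673). Hspg2, which encodes perlecan, a heparan sulfate proteoglycan of basement membranes, had 57.9, 55.2, 46.3 and 54.3 TPM in nanoparticle lungs, 62.2, 66.5, 52.6 and 56.6 in vehicle lungs and 67.3, 89.7, 82.1 and 72.98 in day 14 lungs. It fell by 0.43 (SE 0.12, adjusted p = 0.0244) in nanoparticle against day 14. The Hspg2 call was lost without any of nanoparticle mice 3 and 4 and day 14 mouse 3 (adjusted p = 0.0509 to 0.0831) and with the replicate number as a block (adjusted p = 0.0543). The Hspg2 difference in vehicle against day 14 was −0.30 (SE 0.12, adjusted p = 0.105), and it passed without day 14 mouse 2 (adjusted p = 0.0388) and with limma on log2 TPM (adjusted p = 0.0485 and 0.0499).

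Agrn encodes agrin, another heparan sulfate proteoglycan. It had 159.8, 143, 139 and 134 TPM in nanoparticle lungs, 152, 176, 158 and 145 in vehicle lungs and 167, 167, 178 and 166 in day 14 lungs. In TPM the 4 nanoparticle lungs lay below the 4 day 14 lungs for Agrn, though not by normalised counts, and vehicle lungs overlapped both. Nid1 encodes nidogen-1, which links laminin to type IV collagen. It had 61.8, 67.2, 51.5 and 60.3 TPM in nanoparticle lungs, 56.5, 63.1, 62.99 and 67.5 in vehicle lungs and 69.3, 61.8, 83.9 and 83.7 in day 14 lungs, with overlap of all groups. In nanoparticle against day 14 the differences were −0.18 (SE 0.083, adjusted p = 0.153) for Agrn, −0.32 (SE 0.11, adjusted p = 0.0586) for Nid1 and −0.29 (SE 0.10, adjusted p = 0.0778) for Nid2, and each passed without day 14 mouse 2 (adjusted p = 0.0478, 0.0245 and 0.0264). Nid1 also passed in DESeq2 (adjusted p = 0.0372). The vehicle differences from day 14 for Agrn, Nid1 and Nid2 were −0.070 (SE 0.083, adjusted p = 0.62), −0.26 (SE 0.11, adjusted p = 0.127) and −0.12 (SE 0.10, adjusted p = 0.469).

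Whether nanoparticles altered these genes is asked by nanoparticle against vehicle lungs at day 21. No gene of the 17909 passed in edgeR, 762 (4.25%) had an unadjusted p under 0.05, and DESeq2 called 17 genes higher and 2 lower, none of them among the 40. Of the 40, 33 had a difference below 0, where 49.2% of all genes did, and the median was −0.078 beside 0.0020 over all genes. That median was −0.15 without vehicle mouse 1 and −0.047 without vehicle mouse 2. This is a description, since the 40 genes were measured in the same lungs. An unadjusted p under 0.05 was found for 4 of the 40 (10%): Smoc2 at −0.23, Lum at −0.34, Emilin2 at 0.57 and Ltbp3 at −0.16. Their adjusted p in edgeR was 0.902 for Smoc2 and 0.999 for the others. For Fn1 the difference was −0.040 with a 95% interval of −0.41 to 0.33, for Sparc −0.084 (−0.27 to 0.11), for Bgn −0.056 (−0.22 to 0.11) and for Eln −0.46 (−1.31 to 0.38). The interval lay within ±0.5 on the log2 scale for 29 of the 40 genes and within ±1 for 37. It was narrowest for Efemp2 (half-width 0.147) and widest for Thbs4 (1.08). For Thbs4 the interval ran from −1.01 to 1.15, so with 4 mice a group a difference of either sign within it was not excluded. The smallest effect that could be detected was not computed.

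Comparing the calls against day 14 gene by gene, 14 genes were lower in both day 21 groups: Fn1, Tnc, Thbs1, Thbs2, Sparc, Tgfbi, Mfap2, Mfap4, Emilin1, Fbln2, Efemp2, Bgn, Lum and Vcan. Ogn and Prelp were higher in both. A further 7 were called lower for nanoparticle lungs (Fbn1, Mfap5, Fbln5, Ltbp2, Ltbp3, Fmod and Hspg2) and missed the threshold for vehicle lungs, Ltbp4 was called higher for vehicle lungs, and 16 were called in neither. Calls shared by both comparisons were not counted over all genes, and both comparisons use the same day 14 lungs. Taken singly, 6.51% of all genes were lower and 3.79% higher in vehicle against day 14. In nanoparticle against day 14 these shares were 8.56% and 6.16%. A call in 1 group and a miss in the other is not a difference between them, and the nanoparticle-against-vehicle differences of the 8 genes called in 1 group were −0.19 (Fbn1), −0.32 (Mfap5), −0.077 (Fbln5), −0.079 (Ltbp2), −0.16 (Ltbp3), −0.24 (Fmod), −0.13 (Hspg2) and −0.17 (Ltbp4), with adjusted p = 0.999 for each. Vehicle mouse 2 bears on the vehicle calls: without it, 19 matrix genes were lower and 4 higher in vehicle against day 14. Without nanoparticle mouse 3, 19 were lower and 4 higher in nanoparticle against day 14. In that fit 1358 of all genes were called higher, against 1103 with every mouse. Leaving out each mouse in turn gave 492 to 1265 of all genes lower and 212 to 897 higher in vehicle against day 14. These shifts were therefore not shown to be particular to the matrix genes.

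**Figure D4:**
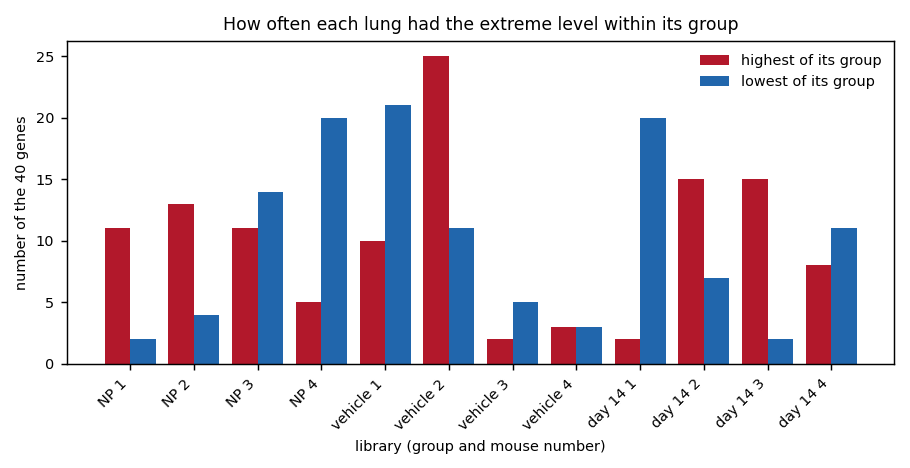
Number of the 40 matrix genes for which each lung had the highest (red) or lowest (blue) TPM among the 4 lungs of its group. Vehicle mouse 2 was highest for 25 genes and vehicle mouse 1 lowest for 21, and nanoparticle mouse 4 and day 14 mouse 1 were each lowest for 20.

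Within a group, some lungs were the highest or lowest for many of the matrix genes. The counts below were not made over all genes, so a trait particular to the matrix genes was not shown. Vehicle mouse 2 was the highest vehicle lung for 25 genes, including Fn1, Sparc, Eln, Fbn1, Bgn and Lum, while vehicle mouse 1 was the lowest for 21. The genes for which vehicle mouse 2 was instead the lowest vehicle lung were Tnxb, Smoc2, Emilin2, Fbln1, Efemp1, Ltbp1, Ltbp4, Dcn, Ogn, Prelp and Nid2. Nanoparticle mouse 4 was the lowest nanoparticle lung for 20 genes and held the lowest summed level, 5971 TPM. The summed level was highest within its group in nanoparticle mouse 2 (6949 TPM), vehicle mouse 2 (7666 TPM) and day 14 mouse 2 (9447 TPM).

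Other matrix genes, from 6 lists of 145 genes, were counted beside the 40. Over all genes, 6.51% were lower and 3.79% higher in vehicle against day 14, and 8.56% were lower and 6.16% higher in nanoparticle against day 14. Fibrillar collagens were lower for 5 of 10 tested in vehicle against day 14 and 7 of 10 in nanoparticle against day 14. Col1a1, a chain of type I collagen, averaged 119.7 ± 16.6 TPM in nanoparticle lungs, 138 ± 27.04 in vehicle lungs and 263 ± 38.8 in day 14 lungs (SD, n = 4 each), and its difference was −0.94 (SE 0.15, adjusted p = 0.00313) in vehicle against day 14 and −1.14 (SE 0.15, adjusted p = 0.000758) in nanoparticle against day 14. Elastic fibre assembly and cross-linking partners were lower for 4 of 14 and 5 of 14 in these comparisons, and 0 were higher. Lox, the lysyl oxidase that cross-links elastin and collagen, averaged 32.7 ± 5.38 TPM in nanoparticle lungs, 29.7 ± 1.62 in vehicle lungs and 43.8 ± 6.01 in day 14 lungs. Its difference was −0.56 (SE 0.11, adjusted p = 0.00881) in vehicle against day 14 and −0.41 (SE 0.11, adjusted p = 0.0244) in nanoparticle against day 14. The latter Lox call was lost without any of nanoparticle mice 1, 2 and 4 and day 14 mice 1 and 3, and in a fit of these groups alone. Loxl2, a relative of Lox, averaged 20.6 ± 2.38 TPM in nanoparticle lungs, 24.6 ± 3.13 in vehicle lungs and 33.7 ± 3.94 in day 14 lungs, with −0.49 (SE 0.11, adjusted p = 0.0135) in vehicle against day 14, lost without day 14 mouse 3, and −0.72 (SE 0.11, adjusted p = 0.00145) in nanoparticle against day 14.

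Some lists had shares near those of all genes in vehicle against day 14: glycoproteins, proteoglycans and glycosaminoglycan enzymes. Of 45 other matrix glycoproteins tested, 3 were lower and 1 higher in vehicle against day 14, and 8 were lower and 2 higher in nanoparticle against day 14. Mgp, which encodes matrix Gla protein, an inhibitor of calcification, averaged 3675 ± 188 TPM in nanoparticle lungs, 3974 ± 318 in vehicle lungs and 6556 ± 872 in day 14 lungs. It fell by 0.76 (SE 0.095, adjusted p = 0.00151) in vehicle lungs and by 0.90 (SE 0.095, adjusted p = 0.000375) in nanoparticle lungs, both against day 14. Ecm2 of the same list rose in both day 21 groups and is described below. Of 13 other proteoglycans, 1 was lower and 1 higher in vehicle against day 14 and 1 lower and 2 higher in nanoparticle against day 14. Podn, which encodes the leucine-rich proteoglycan podocan, averaged 25.5 ± 1.47 TPM in nanoparticle lungs, 28.4 ± 1.14 in vehicle lungs and 36.4 ± 1.62 in day 14 lungs and fell by 0.37 (SE 0.064, adjusted p = 0.00425) in vehicle lungs and by 0.52 (SE 0.064, adjusted p = 0.000517) in nanoparticle lungs, both against day 14. Esm1, from the same list as Podn, rose by 1.06 (adjusted p = 0.0159) in vehicle lungs and by 0.95 (adjusted p = 0.0193) in nanoparticle lungs, both against day 14. These calls were lost in 3 and 5 of the other fits. Of 33 enzymes that build glycosaminoglycan chains, 3 were lower and 1 higher in vehicle against day 14, and 3 lower and 3 higher in nanoparticle against day 14. Chst3 rose by 0.40 (adjusted p = 0.0361, lost in 8 other fits) in vehicle lungs and by 0.52 (adjusted p = 0.0083) in nanoparticle lungs, both against day 14. Chpf, a chondroitin polymerising factor, averaged 29.2 ± 2.16 TPM in nanoparticle lungs, 31.4 ± 1.63 in vehicle lungs and 37.8 ± 0.714 in day 14 lungs and fell by 0.27 (SE 0.058, adjusted p = 0.0112) in vehicle lungs and by 0.37 (SE 0.058, adjusted p = 0.00163) in nanoparticle lungs, both against day 14. Of 17 basement membrane collagens and laminins, 3 were lower in vehicle against day 14 and 6 in nanoparticle against day 14. None of the 6 lists had a gene past the threshold in nanoparticle against vehicle.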

How the data were processed

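PolyA libraries of whole lung (5 lobes, no trachea or large airway) were read as 151 bp pairs, per the labels' protocols. STAR 2.7.8a, RSEM 1.3.3, MultiQC 1.20, FastQC 0.11.8, cutadapt 4.8 and the GRCm38 build are listed in the submitters' processing notes. Neither annotation release nor strand setting was given there. Expected counts were deposited by the authors as whole numbers per gene, and TPM values were deposited by the authors beside them, scaled for gene length and library. FPKM values were not used.

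Expected counts, rounded, were tested with edgeR 4.0.16 in R 4.3.3 (limma 3.58.1, statmod 1.5.0): filterByExpr (minimum count 10, minimum total 15), which left 17909 of 55491 entries (21736 had no count), TMM scaling, a robust quasi-likelihood fit of all 12 libraries and 3 two-sided contrasts. Standard errors and 95% intervals are of the fitted log2 fold changes. The biological coefficient of variation was 0.119. The 12 mice are separate animals per the labels. Replicate libraries of a group differed by more than counting noise (chi-square per degree of freedom 7.97 to 33.2 over 18 pairs). Each p-value sets a group difference against the spread between these mice.

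The 40 genes and the lists of other genes were chosen with earlier results of these data known. Level values of every lung are given for the 3 most abundant genes of each role, the 4 largest called differences of each comparison and genes with an outlying lung; other genes were given the same way where space allowed, and up to 4 genes of each other list were eligible to be named. The fit was tested on simulated counts made from these libraries, with changes planted against day 14 and none between nanoparticle and vehicle. Alternatives were median-of-ratios and upper-quartile scaling, no filter, DESeq2 1.42.0, limma-trend on log2(TPM + 1) and log2(TPM + 0.1) over 18452 genes with at least 0.5 TPM in 4 libraries, a fit of only the 2 groups compared, a replicate block and leaving out each mouse. Counts of each role and list, and the named genes of the other lists, were added to these alternatives after seeing the data.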

Additional observations from a re-analysis of the deposited data

Results flagged for a closer look

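Within each group of 4 lungs, the gap between an extreme lung and its nearest neighbour was set against the group's range, with Dixon's critical value at 95%. Of 120 groups (40 genes in 3 groups), 12 had such a lung, and chance alone marks about 1 in 20 groups. Levels are in TPM.

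Nanoparticle mouse 3, the lung with a neutrophil marker sum of 5465 TPM, was far from the other nanoparticle lungs in 4 genes. It was high for Emilin2 (26.7, against 10.1 to 11.5 in the others), Sparcl1 (734, against 569.7 to 582) and Tgfbi (101, against 64.3 to 70.1), and low for Fbln1 (38.4, against 53.9 to 54.8). Nanoparticle mouse 4 was low for Eln (138, against 331 to 362) and Efemp2 (46.5, against 52.4 to 53.0), and its macrophage marker sum of 564 TPM was the lowest of the 12 lungs. Nanoparticle mouse 1 was high for Thbs1 (119.9, against 62.9 to 71.9).

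Vehicle mouse 2 was low for Prelp (165, against 196 to 198), Efemp1 (92.6, against 108 to 111) and Tnxb (16.7, against 22.2 to 23.3), and it had the lowest vehicle sum of general fibroblast markers, 646 TPM, against 799.7 to 815 TPM in the others. Day 14 mouse 2 was high for Aspn (30.1, against 26.4 to 27.0), and day 14 mouse 3 was high for Agrn (178, against 166 to 167). The part of the marker sums in these levels was not tested.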

How the results depend on the processing

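Each result was recomputed under 8 other settings and without each of the 12 mice. Every called gene of the 40 kept its direction in each of these fits (340 of 340 in vehicle against day 14, 460 of 460 in nanoparticle against day 14). Calls held without each mouse in turn for 9 of 17 genes in vehicle against day 14 and 15 of 23 in nanoparticle against day 14, and under every setting as well for 7 and 14. Beyond those given above, other settings ended these calls. In vehicle against day 14, limma ended Ltbp4 and Lum, and Thbs2 with log2(TPM + 0.1). Upper-quartile scaling ended Lum, no filter ended Thbs1, Thbs2 and Tnc, and a fit of only the groups compared ended Prelp. In nanoparticle against day 14, limma ended Fbn1, Fmod and Tgfbi, and Fbln5 with log2(TPM + 1). No filter ended Fbn1, Fmod, Ltbp2, Tgfbi, Thbs1 and Thbs2, upper-quartile scaling ended Fmod, and a fit of only the groups compared ended Fbln5, Hspg2 and Tgfbi.

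With DESeq2, 17 genes of all tested were higher and 2 lower in nanoparticle against vehicle, and 1126 were higher in vehicle against day 14. With limma on log2(TPM + 1), 652 genes were lower and 293 higher in vehicle against day 14, and 929 lower and 523 higher in nanoparticle against day 14. With log2(TPM + 0.1) these were 620 and 292, and 929 and 531, and 1 gene was lower in nanoparticle against vehicle. With only the 2 groups compared in the fit, 970 genes were lower and 702 higher in nanoparticle against day 14. The causes were not tested. Leaving out each mouse gave 10 to 19 of the 40 genes lower and 0 to 4 higher in vehicle against day 14 (all genes: 492 to 1265 lower, 212 to 897 higher). The 3 higher genes became 0 without vehicle mouse 1 or 3, and 1 without vehicle mouse 4 or day 14 mouse 1, 2 or 3. In nanoparticle against day 14 the ranges were 14 to 22 lower and 1 to 4 higher (all genes: 837 to 1594 and 495 to 1358), with 1 higher without nanoparticle mouse 2 or 4 or day 14 mouse 1.

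Replicate numbers did not pair the mice: the deviations of 12 same-numbered pairs correlated at −0.074 to 0.148, 2 of them over 0.1, and 4 of 12 libraries correlated best with their own number. With the replicate block, 14 of the 40 genes were lower and 3 higher in vehicle against day 14, 21 lower and 2 higher in nanoparticle against day 14, and 0 were called in nanoparticle against vehicle. The block lost Hspg2 (adjusted p = 0.0543) and gained Eln (0.0493) in nanoparticle against day 14, and lost Lum (0.0779) and gained Ltbp2 (0.0441) in vehicle against day 14.

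Signs turned only for uncalled differences. In nanoparticle against vehicle, Sparcl1 became −0.0016 with upper-quartile scaling, and Thbs1 became −0.0036 and −0.0039 with limma on log2(TPM + 1) and log2(TPM + 0.1). In vehicle against day 14 these limma fits gave 0.14 and 0.15 for Emilin2, 0.0010 and 0.0011 for Fbln1, −0.0081 and −0.0083 for Ltbp1, and 0.026 and 0.027 for Lamb2. Without single mice, nanoparticle-against-vehicle differences ranged over −0.17 to 0.055 (Aspn), −0.17 to 0.067 (Efemp1), −0.67 to 0.0011 (Eln), −0.087 to 0.0064 (Emilin1), −0.38 to 0.042 (Fmod), −0.16 to 0.084 (Fn1), −0.19 to 0.073 (Ltbp2), −0.037 to 0.097 (Mfap4), −0.12 to 0.010 (Nid1), −0.11 to 0.029 (Postn), −0.071 to 0.031 (Prelp), −0.076 to 0.052 (Sparcl1), −0.22 to 0.13 (Thbs1), −0.41 to 0.16 (Thbs2) and −0.42 to 0.47 (Thbs4). In vehicle against day 14 they ranged over −0.197 to 0.029 (Aspn), −0.18 to 0.010 (Emilin2), −0.085 to 0.028 (Fbln1) and −0.035 to 0.081 (Ltbp1), and in nanoparticle against day 14 over −0.093 to 0.0063 (Ltbp1).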

Other observations

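Small leucine-rich proteoglycan genes lie in short runs on the chromosomes, and the differences of neighbours from day 14 lay on either side of 0. On chromosome 13, Ecm2, Aspn, Omd and Ogn follow each other with gaps of 11.7, 14.9 and 15.2 kb in GRCm38. Ecm2, a matrix protein with leucine-rich repeats, averaged 13.9 ± 2.51 TPM in nanoparticle lungs, 14.5 ± 0.64 in vehicle lungs and 9.14 ± 0.724 in day 14 lungs (SD, n = 4 each) and rose by 0.68 (SE 0.10, adjusted p = 0.00289) on the log2 scale in vehicle against day 14 and by 0.61 (SE 0.11, adjusted p = 0.0028) in nanoparticle against day 14, in edgeR. Aspn, between Ecm2 and Omd, had differences of −0.077 in vehicle against day 14 and −0.15 in nanoparticle against day 14. Omd, which encodes osteomodulin, was scarce at 2.58 ± 0.991 TPM in nanoparticle lungs, 2.10 ± 0.578 in vehicle lungs and 1.70 ± 0.39 in day 14 lungs, and its differences were 0.36 (SE 0.27, adjusted p = 0.41) in vehicle against day 14 and 0.58 (SE 0.27, adjusted p = 0.159) in nanoparticle against day 14. On chromosome 10, Dcn and Lum are 47.0 kb apart, and the difference in nanoparticle against day 14 was 0.15 for Dcn and −0.76 for Lum. On chromosome 1, Prelp and Fmod are 115.8 kb apart, and the same comparison gave 0.30 for Prelp and −0.76 for Fmod. These neighbours were chosen after their values were seen, and the difference between neighbours was not tested.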
